A study of Mus musculus with 12 samples.

Results

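The 32 genes described here encode proteins that copy DNA and divide the cell, 8 of them acting mainly in S phase and 24 in mitosis. They were chosen by name, as the rows of the table whose gene symbol is on a fixed list, and all 32 were found among the 55487 genes. The data were bulk messenger RNA counts of 12 kidney samples from male Alport mice (Col4a5, the X-linked form of this inherited disease of the glomerular basement membrane), on the B6 background, taken at 30 weeks of age. A control diet was fed in 6 and a diet with fisetin, a plant flavonol, at 500 ppm in the other 6, and each of the 2 labelled batches held 3 samples per diet. The genotype of all 12 is labelled HET although the mice are described as males, and no unaffected kidney was used here, so both groups are diseased. Nothing in the labels ties a library to its own mouse, and p-values therefore speak for the variation among libraries, part of which may be technical.

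A cell that divides first copies its DNA. Cyclin E with its kinase starts S phase, the MCM proteins unwind the double helix, PCNA clamps the polymerase to it, and thymidylate synthase (Tyms) and ribonucleotide reductase (Rrm2) make the building blocks. In mitosis, cyclins A and B with Cdk1 and the Plk and Aurora kinases condense the chromosomes and build the spindle. Kinetochores, protein plates on each centromere, tie chromosomes to spindle fibres, and the checkpoint kinases hold the cell until every chromosome is attached. Few cells of an adult kidney divide at any time. In a diseased kidney both tubule cells under repair and infiltrating immune cells can divide, and in bulk tissue fewer cells of a type and less RNA per cell cannot be told apart.

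Genes of these phases carry known promoter elements. The CCAAT box binds the factor NF-Y, the cell cycle genes homology region (CHR; core letters TTTGAA or TTCGAA) is bound by the DREAM and MuvB complexes in late cell cycle genes, and E2F sites are known from S phase genes. For E2F sites the letters searched were TTCCCGC, the same with GG after the pair of T (TTGGCGC), the form with CG there (TTCGCGC) and the form with GC there (TTGCCGC). RefSeq promoter sequences on GRCm38.p6 were matched by symbol for 27 of the 32 genes, not for Ccna2, Aurkb, Spc24, Kif20a and Tpx2. The 250 bases before the annotated start are printed 5′ to 3′ on the gene's strand, with matches to any of the 3 motifs, on either strand, in capitals. All 7 lie on the minus strand of the genome. Matches of different motifs or strands may overlap, as they do in Mcm6. The first 4 are the 3 mitotic genes with the smallest p-values for the immune score in the fit below, and Cdk1, the gene of the central mitotic kinase. They lie at chr11:99024190-99024439 (Top2a), chr7:135716380-135716629 (Mki67), chr9:70421555-70421804 (Ccnb2) and chr10:69352913-69353162 (Cdk1).
Top2a: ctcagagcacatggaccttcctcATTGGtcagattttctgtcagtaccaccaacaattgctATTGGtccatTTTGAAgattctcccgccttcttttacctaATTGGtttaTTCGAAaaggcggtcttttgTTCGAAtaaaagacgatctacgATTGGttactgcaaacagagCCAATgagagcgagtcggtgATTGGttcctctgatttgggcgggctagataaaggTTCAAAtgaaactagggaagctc
Mki67: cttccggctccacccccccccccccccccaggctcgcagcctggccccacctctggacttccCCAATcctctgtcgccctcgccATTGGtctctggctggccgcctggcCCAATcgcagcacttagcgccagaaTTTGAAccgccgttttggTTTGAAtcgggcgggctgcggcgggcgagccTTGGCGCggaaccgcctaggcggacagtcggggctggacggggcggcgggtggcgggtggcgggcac
Ccnb2: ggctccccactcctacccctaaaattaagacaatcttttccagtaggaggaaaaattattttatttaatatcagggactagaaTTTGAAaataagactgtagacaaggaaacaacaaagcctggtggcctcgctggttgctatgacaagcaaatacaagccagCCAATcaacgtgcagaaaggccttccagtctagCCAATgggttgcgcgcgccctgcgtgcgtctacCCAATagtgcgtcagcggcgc
Cdk1: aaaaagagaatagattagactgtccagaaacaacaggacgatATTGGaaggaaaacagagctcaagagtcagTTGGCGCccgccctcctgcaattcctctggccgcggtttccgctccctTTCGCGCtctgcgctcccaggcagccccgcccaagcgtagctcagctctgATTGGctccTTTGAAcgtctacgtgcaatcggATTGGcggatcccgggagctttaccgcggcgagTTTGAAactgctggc

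The next 3 are an S phase gene and the pair of genes that stood apart from the other 30 in the values below. They lie at chr1:128359706-128359955 (Mcm6), chr2:69206214-69206463 (Spc25) and chr5:30073626-30073875 (Tyms).
Mcm6: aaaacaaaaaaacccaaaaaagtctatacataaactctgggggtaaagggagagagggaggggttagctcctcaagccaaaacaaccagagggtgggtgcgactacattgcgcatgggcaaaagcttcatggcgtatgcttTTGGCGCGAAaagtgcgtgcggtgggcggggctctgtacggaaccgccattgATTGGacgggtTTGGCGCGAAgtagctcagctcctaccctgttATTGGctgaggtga
Spc25: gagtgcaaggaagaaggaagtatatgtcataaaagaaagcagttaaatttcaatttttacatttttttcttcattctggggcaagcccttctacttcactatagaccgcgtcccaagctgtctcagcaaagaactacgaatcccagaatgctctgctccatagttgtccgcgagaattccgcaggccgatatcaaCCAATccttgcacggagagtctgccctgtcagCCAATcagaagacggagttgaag
Tyms: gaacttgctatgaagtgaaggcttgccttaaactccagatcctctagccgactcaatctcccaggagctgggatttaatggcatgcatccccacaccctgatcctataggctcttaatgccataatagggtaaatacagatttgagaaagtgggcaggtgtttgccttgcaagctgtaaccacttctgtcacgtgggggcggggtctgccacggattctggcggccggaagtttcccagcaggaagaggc

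Top2a held 6 CCAAT boxes and 4 CHR cores in this window, while Mcm6 held 4 E2F type matches and no CHR core. Spc25 held 2 CCAAT boxes and neither of the other motifs, and Tyms held none of the 3. Over the 27 promoters, 22 (81.5%) had a CCAAT box, against 33.8% of all 32851 promoters in the table. A CHR core was present in 8 of 27 (29.6%) against 17.1% of all, in 7 of 19 mitotic and 1 of 8 S phase promoters. E2F type letters were present in 6 of 27 (22.2%) against 7.89% of all, in 3 of 8 S phase and 3 of 19 mitotic promoters. With the 50 bases after the start included, 15 of 19 mitotic promoters (78.9%) had a CHR core, Spc25 among them, against 19.2% of all, and Mcm2 remained the only S phase gene with one. A match is a stretch of letters, not a shown binding site.

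All 32 genes passed the count filter and were tested among 17890 genes. Their deposited estimated counts ran from 14 for Ccne1 to 1752 for Mki67 in a library, with library totals of 16310214 to 24451821. On the per-length scale of deposited TPM (a length-scaled share of all transcripts), the order of medians over the 12 libraries began with Pcna (25.58), Spc25 (10.77), Mcm6 (9.835), Tyms (7.88) and Mcm2 (6.33) and ended with Cenpe (0.705), Ccne1 (0.655), Ttk (0.565) and Bub1 (0.53). Pcna lay above all the others in every library (18.0 to 34.84), while the ranges of the other genes named overlapped with those of their neighbours in this order. The TPM scale is touched by the 7SL genes, small cytoplasmic RNAs that took 40.34 to 53.1% of all TPM, most in control 1 (53.1%) and fisetin 6 (49.21%), so differences between libraries are given below in CPM, which are counts as a share of the library after TMM scaling.

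Fisetin kidneys had slightly higher mean levels of 31 of the 32 genes, Tyms being the exception, and none of the 32 differences passed the test over all genes. The median log2 difference was 0.33 over the 32 genes, 0.10 over the S phase genes and 0.38 over the mitotic genes, against 0.001 over all genes tested. By edgeR's quasi-likelihood test with a term for batch, 0 of the 32 genes had an adjusted p under 0.05, and 0.0% of all genes did. At an unadjusted p under 0.05 there were 5 genes higher (Spc25, Cenpe, Ccnb1, Cenpf and Tpx2) and Tyms lower, that is 6 of 32, where 14.6% of all genes passed in either direction and 8.23% as higher. Of all genes at that p, 1473 of 2608 were higher, and 1845 of 2690 with total count scaling. DESeq2 called 1 of the 32 higher (Spc25), with 0.509% of all genes, and limma-voom with quality weights called 5 (Spc25, Cenpe, Ccnb1, Cenpf and Tpx2), with 6.46% of all genes.

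Among the S phase genes the diet differences were small beside the spread of the libraries. Mcm2, a subunit of the replicative helicase, ranged from 22.99 to 29.23 CPM in control libraries (median 25.25) and from 18.64 to 31.68 in fisetin libraries (median 29.26). The groups overlapped, with fisetin 6 lowest of all 12 libraries and 3 fisetin libraries above every control library. Its log2 difference was 0.10 ± 0.12 (SE; adjusted p = 0.669).

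Mcm3, of the same helicase, ranged from 11.97 to 20.05 CPM (median 14.78) with the control diet and from 11.5 to 23.53 (median 18.01) with fisetin. Both ends of the range were fisetin libraries, fisetin 6 and fisetin 5. Its log2 difference was 0.22 ± 0.17 (adjusted p = 0.504).

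Pcna, the polymerase clamp, ranged from 39.55 to 46.27 CPM (median 45.31) with the control diet and from 41.26 to 55.71 (median 47.04) with fisetin. Its log2 difference was 0.11 ± 0.07 (adjusted p = 0.453). Pcna has named pseudogene copies in the table (Pcna-ps1 and Pcna-ps2), so the split of reads between copies is uncertain, as it is for Tyms, Ccnb1 and Ccnb2. The other S phase genes had log2 differences of 0.03 ± 0.13 (Mcm5), 0.07 ± 0.08 (Mcm6), 0.29 ± 0.18 (Rrm2) and 0.57 ± 0.30 (Ccne1, cyclin E1, at 0.763 to 3.195 CPM).

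Tyms, which makes thymidylate, went the other way. Control libraries ranged from 30.9 to 35.83 CPM (median 34.89) and fisetin libraries from 29.97 to 32.74 (median 31.04). All 6 fisetin libraries lay below the control mean of 33.95, and the groups overlapped through control 4 and control 6. The log2 difference was -0.12 ± 0.04 (adjusted p = 0.294), and 0.00 on the log2(TPM + 1) scale, where the median of all genes was 0.055. Tyms was the steadiest of the 32 genes, its highest library being 1.195 times its lowest, against 4.187 times for Ccne1 and 3.091 times for Mki67. Its counts were fractional in 11 of 12 libraries, and a copy, Tyms-ps, is in the table.

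**Figure D1:**
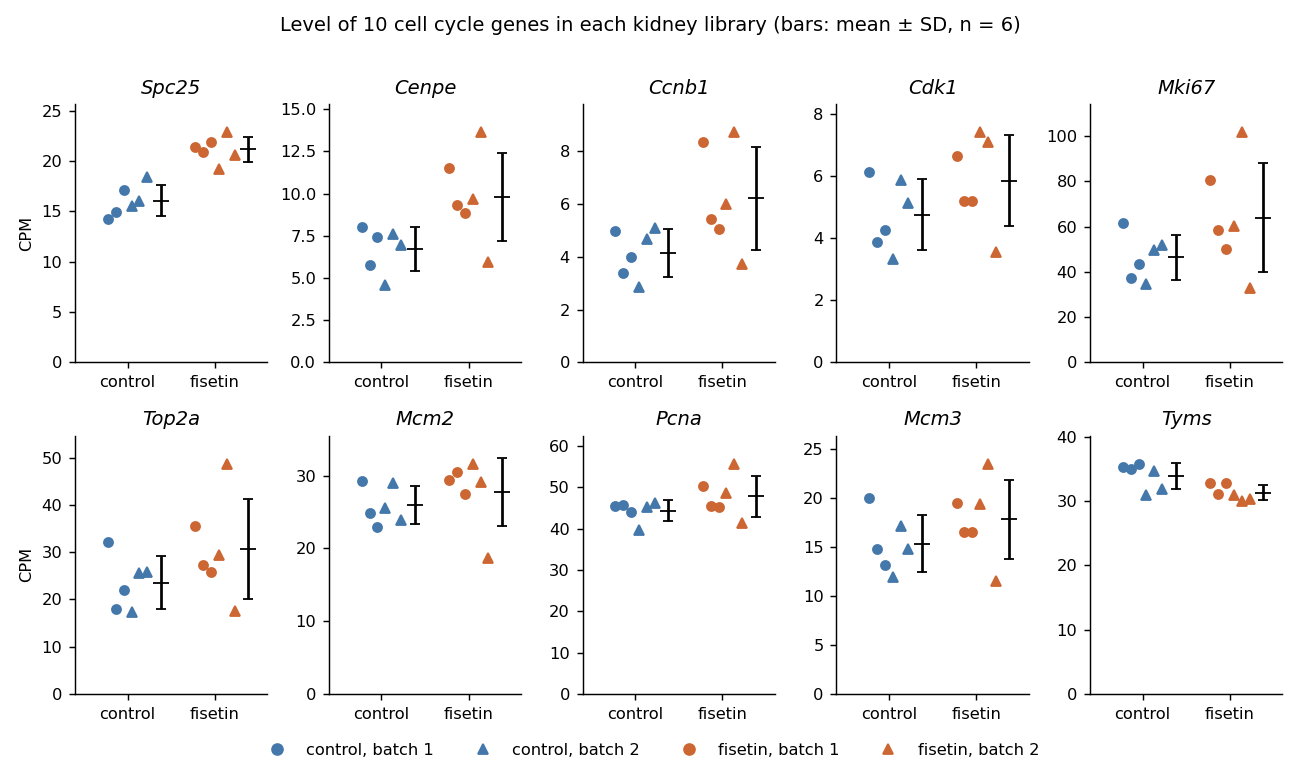
Level of 10 of the genes in each library, in CPM on axes from 0, by diet and batch, with mean ± SD of 6 libraries. The diets separate for Spc25 (14.25 to 18.42 against 19.25 to 22.89 CPM) and overlap for the other 9, and fisetin 5 is the highest library for Mki67 (101.8 CPM) and fisetin 6 the lowest (32.92 CPM).

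The cyclins and kinases of mitosis had log2 differences of 0.27 to 0.58 in 7 genes (median 0.33), none past the threshold. Ccnb1, cyclin B1, which activates Cdk1, ranged from 2.836 to 5.088 CPM (median 4.323) with the control diet and from 3.706 to 8.713 (median 5.703) with fisetin. Of the fisetin libraries, 4 lay above every control library, and fisetin 6 was below the control mean. The log2 difference was 0.58 ± 0.22 (adjusted p = 0.303).

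Its partner kinase Cdk1 ranged from 3.316 to 6.121 CPM (median 4.696) with the control diet and from 3.543 to 7.418 (median 5.926) with fisetin, a log2 difference of 0.30 ± 0.20 (adjusted p = 0.463). Ccnb2, cyclin B2, ranged from 2.739 to 6.121 CPM (median 3.375) and from 2.971 to 6.506 (median 4.711), a log2 difference of 0.33 ± 0.25 (adjusted p = 0.509). In Ccnb2 a control library, control 1, was above 4 of the 6 fisetin libraries. Ccna2, Plk1, Aurka and Aurkb differed by 0.27 to 0.36.

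The 4 genes of the spindle checkpoint (Bub1, Bub1b and Ttk) and its target (the APC activator Cdc20) had log2 differences of 0.30 to 0.44 (median 0.38). None passed the threshold. Of the 4, Ttk was the only one whose 6 fisetin libraries all lay above the control mean of 1.365 CPM, and its groups still overlapped.

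The 7 kinetochore genes had a median log2 difference of 0.40, from 0.11 for Spc24 to 0.55 for Cenpe. Cenpe, the kinesin that moves chromosomes to the spindle equator, ranged from 4.614 to 8.02 CPM (median 7.206) with the control diet and from 5.941 to 13.65 (median 9.484) with fisetin. Apart from fisetin 6, every fisetin library was above every control library. The log2 difference was 0.55 ± 0.19 (adjusted p = 0.290).

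Cenpf, a large outer kinetochore protein, ranged from 8.555 to 13.51 CPM (median 11.4) and from 9.538 to 20.39 (median 14.82), a log2 difference of 0.46 ± 0.19 (adjusted p = 0.313). Cenpa, the histone that marks the centromere, ranged from 4.854 to 9.551 CPM (median 7.153) and from 6.05 to 13.65 (median 8.484), a log2 difference of 0.39 ± 0.20 (adjusted p = 0.377). Both groups of libraries overlapped in each gene, and control 4 and fisetin 6 were the lowest of their groups in both.

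Spc25 was the only one of the 32 genes whose diets did not overlap in CPM. How many of all 17890 genes separated in this way was not counted, so it is not known whether 1 of 32 is more than among all genes. It encodes a subunit of the NDC80 complex, which grips the spindle fibre, and lies at chr2:69193895-69206194 on the minus strand of GRCm38. The control libraries held 14.25, 14.94, 15.52, 16.02, 17.18 and 18.42 CPM and the fisetin libraries 19.25, 20.66, 20.92, 21.43, 21.95 and 22.89. The means were 16.1 ± 1.53 and 21.2 ± 1.24 CPM (SD, n = 6 each). The log2 difference was 0.40 ± 0.07, and its adjusted p of 0.145 equalled the smallest over all 17890 genes in edgeR's test. Benjamini-Hochberg adjustment can give the same value to many genes, so Spc25 need not have the smallest p. The log2 difference was 0.47 in batch 1 and 0.34 in batch 2. The adjusted p was 0.000634 by DESeq2, 0.0218 by limma-voom with quality weights, and 0.049 by edgeR without fisetin 6. In TPM the diets overlapped for Spc25, control 5 (11.17) lying above fisetin 4 (10.89) and fisetin 6 (10.65).

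The complex is built from Ndc80, Nuf2, Spc24 and Spc25, and the messages for its parts were not alike in level. Median TPM over the 12 libraries was 0.97 for Ndc80, 0.94 for Nuf2, 3.05 for Spc24 and 10.77 for Spc25. The ratio of Spc25 to the mean of the other 3 subunits was 4.546 to 7.055 in control libraries (median 6.004) and 5.421 to 12.94 in fisetin libraries (median 6.158). The value of 12.94 belonged to fisetin 6, where Ndc80 (0.49 TPM) and Spc24 (1.37) were at their lowest of the 12 libraries and Spc25, at 20.66 CPM, stayed within the fisetin range. The log2 diet differences of the other subunits were 0.32 ± 0.23 (Ndc80), 0.41 ± 0.20 (Nuf2) and 0.11 ± 0.15 (Spc24), and none passed the threshold. The difference between Spc25 and its partners was not tested. Spc24 counts were fractional in all 12 libraries, and how such counts arose is not given in the sources used here.

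**Figure D2:**
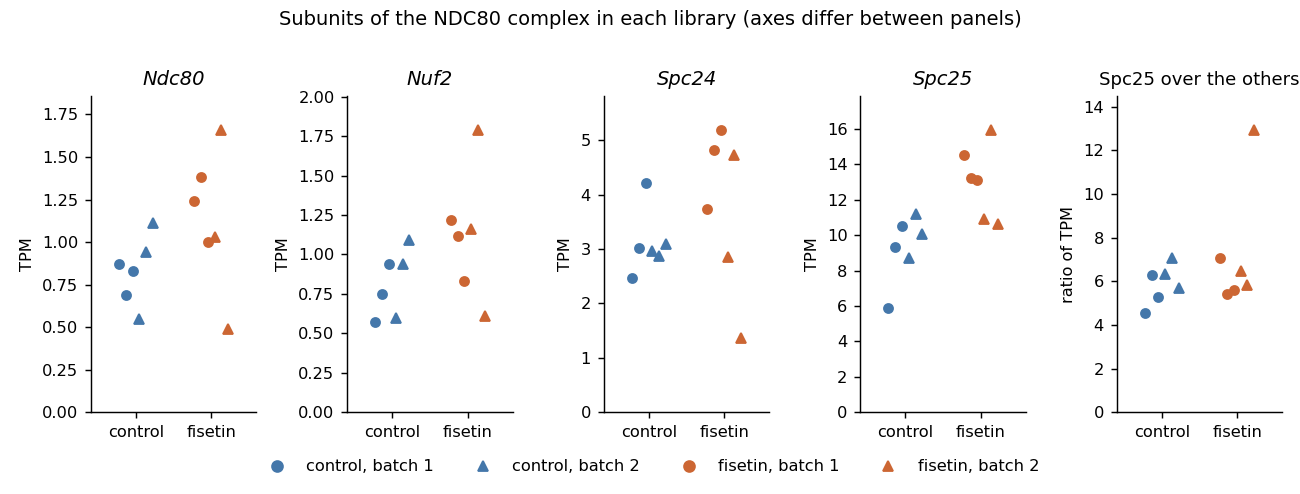
TPM of the 4 NDC80 complex subunits in each library, and the ratio of Spc25 to the mean of the other 3, by diet and batch, on axes from 0 that differ between panels. Spc25 lies at 5.91 to 15.94 TPM, above its partners in every library, and the ratio is 12.94 in fisetin 6 and 4.546 to 7.055 in the other 11 libraries.

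The genes of spindle and chromosome structure had log2 differences of 0.20 to 0.46 in 6 genes (median 0.39). Mki67, the surface protein of mitotic chromosomes used as the Ki-67 proliferation marker, ranged from 34.84 to 61.58 CPM (median 46.57) with the control diet and from 32.92 to 101.8 (median 59.43) with fisetin. The fisetin group held the highest and the lowest of the 12 libraries. The log2 difference was 0.46 ± 0.24 (adjusted p = 0.381).

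Top2a, the topoisomerase that untangles sister chromosomes, ranged from 17.35 to 32.24 CPM (median 23.77) and from 17.55 to 48.74 (median 28.41), a log2 difference of 0.39 ± 0.23 (adjusted p = 0.421). Kif11, Kif20a, Birc5 and Tpx2 differed by 0.20 to 0.42, with Tpx2, the activator of Aurora A on the spindle, at 0.40 ± 0.17 (adjusted p = 0.325). Kif20a overlaps Cdc23 on the opposite strand, Cdc20 overlaps Elovl1 and Ccna2 overlaps Exosc9. Whether the counting used strand is not given in the sources used here, so reads of these pairs may not be told apart.

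The direction was the same in both batches for all 32 genes, and the batch term called none of them. The median log2 difference of the 32 genes was 0.27 in batch 1 and 0.40 in batch 2. For the batch term edgeR called 0 of the 32 genes (0.0% of all genes; 1 at an unadjusted p under 0.05, Tyms), and for the interaction of diet with batch 0 (0.0% of all genes; 0 unadjusted). DESeq2 also called 0 for each term, with 0 unadjusted for each.

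The result for diet depended on a few libraries. Without control 1 and fisetin 6, the libraries with the most 7SL RNA, 12 of the 32 genes were called higher, 3 of S phase and 9 of mitosis, with 7.66% of all genes, and the median log2 difference was 0.55. These are also the control library with the highest mitotic level and the fisetin library with the lowest, so leaving them out widens the difference. Without fisetin 6 alone, 1 gene (Spc25) was called, with 0.244% of all genes. Leaving out fisetin 5, the library with the highest mitotic score, made the differences smaller. The median log2 difference was then 0.202, with 0 of the 32 genes called and 2 higher at an unadjusted p under 0.05. Without it Mki67 differed by 0.249, Top2a by 0.186, Ccna2 by 0.121, Cenpa by 0.214 and Cdc20 by 0.132, while Spc25 differed by 0.378, Ccnb1 by 0.437 and Cenpe by 0.403.

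The genes varied together from library to library. A score for each phase was taken as the mean log2 CPM of its genes. The S phase score was 4.03 ± 0.18 with the control diet and 4.17 ± 0.26 with fisetin (SD, n = 6 each), and the mitotic score 2.47 ± 0.25 and 2.80 ± 0.37. The differences were 0.139 and 0.337, and in batches 1 and 2 they were 0.106 and 0.173 for S phase and 0.316 and 0.358 for mitosis. The mitotic score was highest in fisetin 5 (3.319) and fisetin 1 (3.06) and lowest in control 4 (2.108), control 2 (2.245) and fisetin 6 (2.252). Both scores moved together over the 12 libraries (r = 0.915, rho = 0.923, described here with no test, since the scores share libraries and scaling). Without fisetin 5 and fisetin 6 r was 0.875.

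Single genes followed the mean of the other mitotic genes closely, with r from 0.636 (Birc5) to 0.987 (Mki67) and a median of 0.918 over 23 mitotic genes. Spc25 was looser, at 0.524. The S phase genes other than Tyms correlated with the mitotic mean at 0.654 (Mcm2) to 0.953 (Rrm2), and Tyms at -0.195. The gene-wise spread beyond counting noise, edgeR's biological coefficient of variation, had a median of 0.238 over the mitotic genes and 0.159 over the S phase genes, against 0.131 over 11371 genes of the same range of level. Tyms, at 0.068, was the lowest of the 32.

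The spread of these genes followed immune markers and ran against proximal tubule markers. An immune score was the mean of marker scores for macrophages, dendritic cells, T and NK cells, and B cells. It was 2.74 ± 0.47 with the control diet and 3.34 ± 0.56 with fisetin (SD, n = 6 each), so its mean was higher with fisetin, as that of the mitotic score was. Its diets overlapped (2.346 to 3.623 against 2.449 to 4.06), and by edgeR 0 of the 36 tested markers of the 4 lists passed for diet (smallest adjusted p 0.281). Of the 38 markers in the 4 lists, 36 passed the filter and entered the score, and 0 were at 0 in any library, with Cd79b, a B cell receptor chain, at 1.34 to 21.28 TPM. The 2 that failed were the NK cell markers Klrb1c (0.04 to 0.24 TPM) and Ncr1 (0.03 to 0.3 TPM). The T and NK cell score thus rested on the other 10 markers of its list and says little about NK cells. Proximal tubule markers, the main epithelium of the kidney, were present in every library (Slc34a1 at 553 to 1313 TPM), and their score was 9.75 ± 0.29 and 9.39 ± 0.44.

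Across the 12 libraries the mitotic score had r = 0.918 and rho = 0.874 with the immune score, with 0.951 in batch 1, 0.912 in batch 2, 0.719 within control and 0.989 within fisetin libraries. Without fisetin 5 and fisetin 1, the libraries farthest from the median, r was 0.832. The S phase score had r = 0.83 with the immune score (0.711 without the same libraries) and 0.553 within control libraries. Of the separate lists, the S phase score lay closest to macrophage markers (r = 0.936) and the mitotic score to B cell and macrophage markers (0.883 and 0.881). Both scores ran against proximal tubule markers (r = -0.931 and -0.92, and -0.935 and -0.694 within control libraries). These are descriptions over libraries that share depth, scaling and tissue make-up, and what each marker list contributes was not tested.

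**Figure D3:**
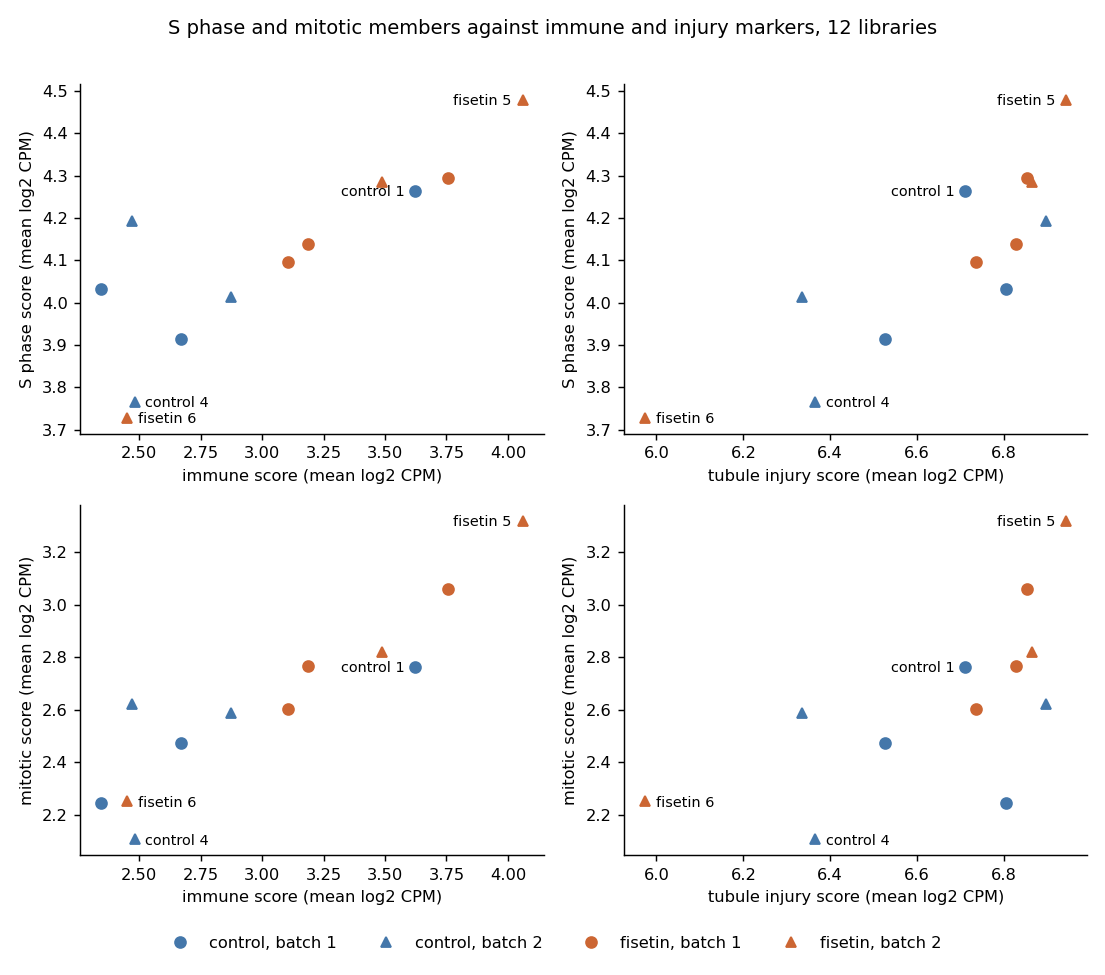
S phase score (upper row) and mitotic score (lower row) against the immune score (left) and the tubule injury score (right), all in mean log2 CPM, with 1 point per library by diet and batch. Fisetin 5 is highest on all 4 scores, and fisetin 6 is lowest on the injury score (5.974) and the S phase score (3.728).

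With batch and diet in the model, 23 of the 32 genes rose with the immune score and 0 fell, where 9.21% of all genes rose (17.8% changed in either direction). They were 5 of 8 S phase genes (Mcm3, Mcm5, Mcm6, Pcna and Rrm2) and 18 of 24 mitotic genes. The 5 with the smallest p-values were Ccnb2, with a slope of 0.82 ± 0.13 log2 per unit of score (adjusted p = 0.000958), Mki67 with 0.81 ± 0.11 (adjusted p = 0.000331) and Top2a with 0.77 ± 0.09 (adjusted p = 0.000137). Cenpa had 0.66 ± 0.10 (adjusted p = 0.00119) and Mcm3 0.51 ± 0.10 (adjusted p = 0.0051). The genes that did not pass were Ccne1, Mcm2, Tyms, Aurka, Ttk, Spc24, Spc25, Kif20a and Birc5.

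Of these 9, 7 had slopes of 0.26 to 0.70 (adjusted p from 0.0513 for Kif20a to 0.104 for Mcm2), while Spc25 (0.015 ± 0.078, adjusted p = 0.920) and Tyms (0.0016 ± 0.047, adjusted p = 0.987) had slopes near 0. By DESeq2 24 of the 32 genes rose, with 10.2% of all genes, and with total count scaling 29, with 14.8% (2650 rising and 1344 falling, against 1648 and 1532 with TMM scaling). With 1 marker list in place of the joint score, 27 rose with macrophage markers (16.5% of all genes), 22 with dendritic cell markers (12.3%), 11 with B cell markers (3.76%) and 6 with T and NK cell markers (4.59%). The count rested most on fisetin 5 and fisetin 6. It was 5 without fisetin 5 (3.38% of all genes), 6 without fisetin 6 (3.95%), 2 without control 1 and fisetin 6 (1.0%), and 4 and 2 in batch 1 and batch 2 alone (2.11% and 1.92%). The median slope changed less, from 0.536 over the 32 genes to 0.473 without fisetin 5 and 0.453 without fisetin 6. Other kidney markers moved with the immune score as well. Of those tested, 7 of 10 proximal tubule, 5 of 8 other nephron, 4 of 6 endothelial and 2 of 6 podocyte markers fell. Over all 17890 genes 1532 fell. The part of these markers in the slopes was not tested.

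With the immune score as a further term, the diet differences of the mitotic genes were near 0. Their median was -0.02 and that of the S phase genes -0.06, 11 of the 32 genes were positive and 21 negative, and 0 passed the threshold (3 at an unadjusted p under 0.05). Mki67 went from 0.46 to -0.09, Top2a from 0.39 to -0.11 and Cdk1 from 0.30 to -0.06. Spc25 stayed at 0.39 ± 0.09 (adjusted p = 0.562) and Tyms at -0.12. The immune score was itself 0.597 higher with fisetin, and its part in the diet differences was not tested.

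**Figure D4:**
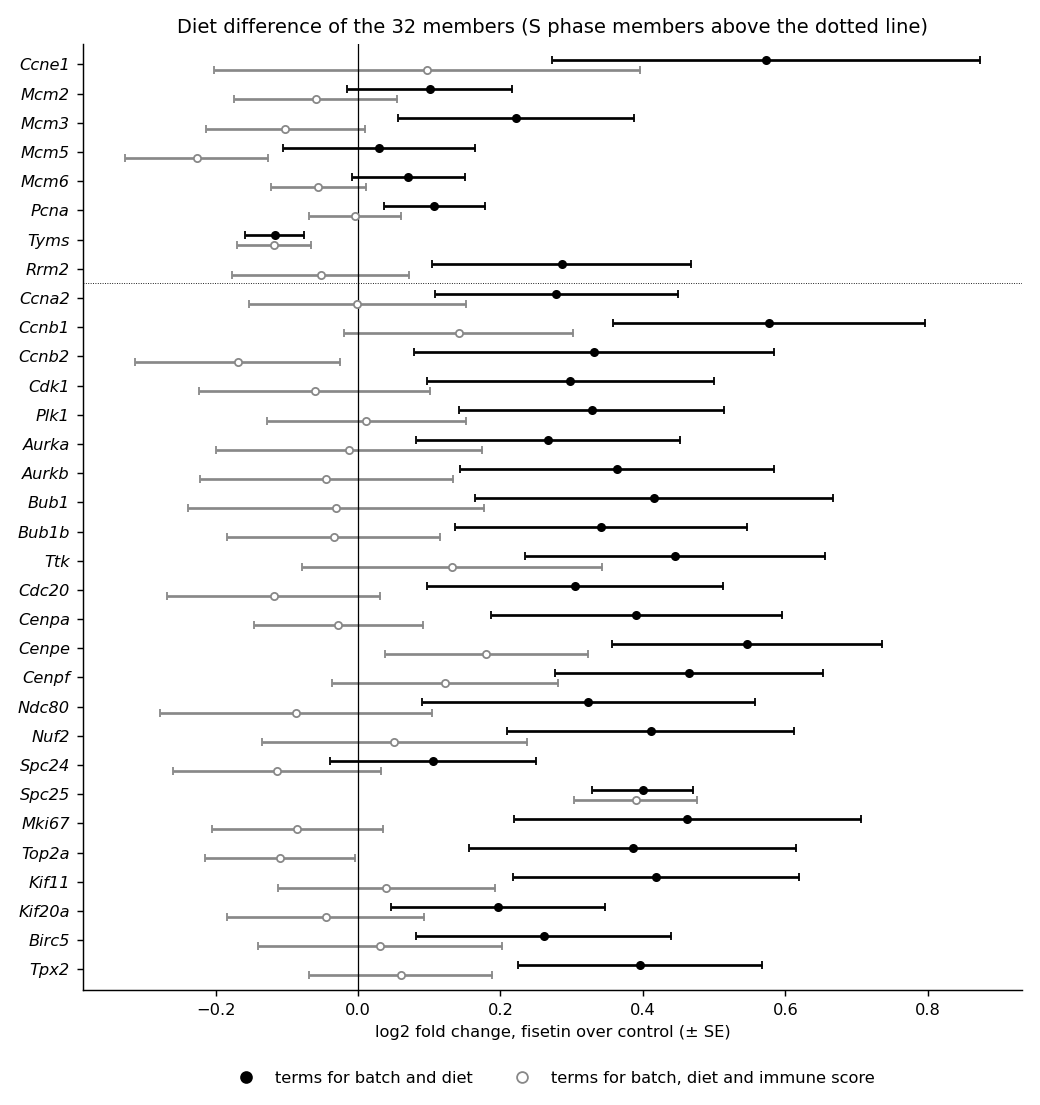
Diet difference of each of the 32 genes as log2 fold change ± SE, with terms for batch and diet (black) and with the immune score added (open grey), S phase genes above the dotted line. Black points are above 0 for 31 genes, while with the immune score 11 are above 0, Spc25 at 0.39 among them.

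A second marker list, of injured tubule cells (among them Havcr1, Lcn2, Vcam1 and Krt20), ranged differently. Its score was 6.61 ± 0.23 with the control diet and 6.70 ± 0.36 with fisetin, a difference of 0.093, and had r = 0.537 with the immune score. The S phase score lay close to it (r = 0.852, rho = 0.86, and 0.869 without fisetin 6 and control 6) and the mitotic score less so (r = 0.655, rho = 0.748, and 0.295 within control libraries). In batch 1 r was 0.652 for S phase and 0.391 for mitosis, and in batch 2 0.911 and 0.765. The difference between the phases was not tested.

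With the injury score in place of the immune score, 12 of the 32 genes rose with it and 0 fell, where 8.14% of all genes rose. They were 4 of 8 S phase genes, Ccne1, Mcm2, Mcm3 and Mcm5, and 8 of 24 mitotic genes, Ccna2, Cdk1, Aurka, Aurkb, Cenpe, Cenpf, Spc24 and Tpx2. Markers of other kidney and blood cells moved with the same score. Of those tested, 3 of 3 erythroid, 5 of 6 endothelial, 4 of 6 podocyte and 6 of 10 proximal tubule markers fell with it. Over all 17890 genes 1829 fell. Of 10 macrophage markers 9 rose and 1 fell. The part of these markers in the slopes was not tested. The steepest of the 32 was Ccne1, at 1.88 ± 0.32 log2 per unit (adjusted p = 0.00358), and Mcm2 had 0.67 ± 0.13 (adjusted p = 0.00549). Ccne1, Mcm2, Aurka and Spc24 passed for injury and not for the immune score, 8 genes passed for both, and Tyms, Ttk, Spc25, Kif20a and Birc5 for neither. The calls rested on fisetin 6, whose injury score of 5.974 was the lowest and whose erythroid score of 4.279 was the highest of the 12 libraries. Without it 0 of the 32 genes passed (0.0% of all genes; 3 unadjusted), without fisetin 5 there were 5 (5.18%), and in batch 1 alone 0 (0.0%; 0 unadjusted), against 8 in batch 2 (6.3%). Without both control 1 and fisetin 6 it was 0 (0.039% of all genes; 4 unadjusted). With total count scaling 24 genes rose, but there 22.0% of all genes did, 3940 rising and 1077 falling where TMM scaling gave 1456 and 1829, and the median slope of all genes was 0.163 against 0.002.

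With both scores in 1 fit fewer genes passed for either. This joint fit was run on all 12 libraries only and was not repeated without fisetin 6. Without that library the injury score alone called 0 of all genes. The injury term called 3 of the 32 genes, all of S phase (Ccne1, Mcm2 and Mcm3), where 3.03% of all genes rose, and Tpx2 was at an adjusted p of 0.0504. The immune term called 8, where 4.62% rose, namely the S phase genes Mcm3 and Rrm2 and the mitotic genes Ccnb2, Plk1, Cdc20, Cenpa, Mki67 and Top2a. Ccne1 had a slope of 1.63 ± 0.36 on injury (adjusted p = 0.0195) and 0.28 ± 0.19 on immune markers (adjusted p = 0.471). Mki67 had 0.46 ± 0.17 (adjusted p = 0.142) and 0.68 ± 0.10 (adjusted p = 0.000673), and Ccnb2 -0.03 ± 0.28 and 0.83 ± 0.15. Passing 1 term and not the other does not show that the slopes differ, and neither the difference of slopes nor that between the phases was tested.

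**Figure D5:**
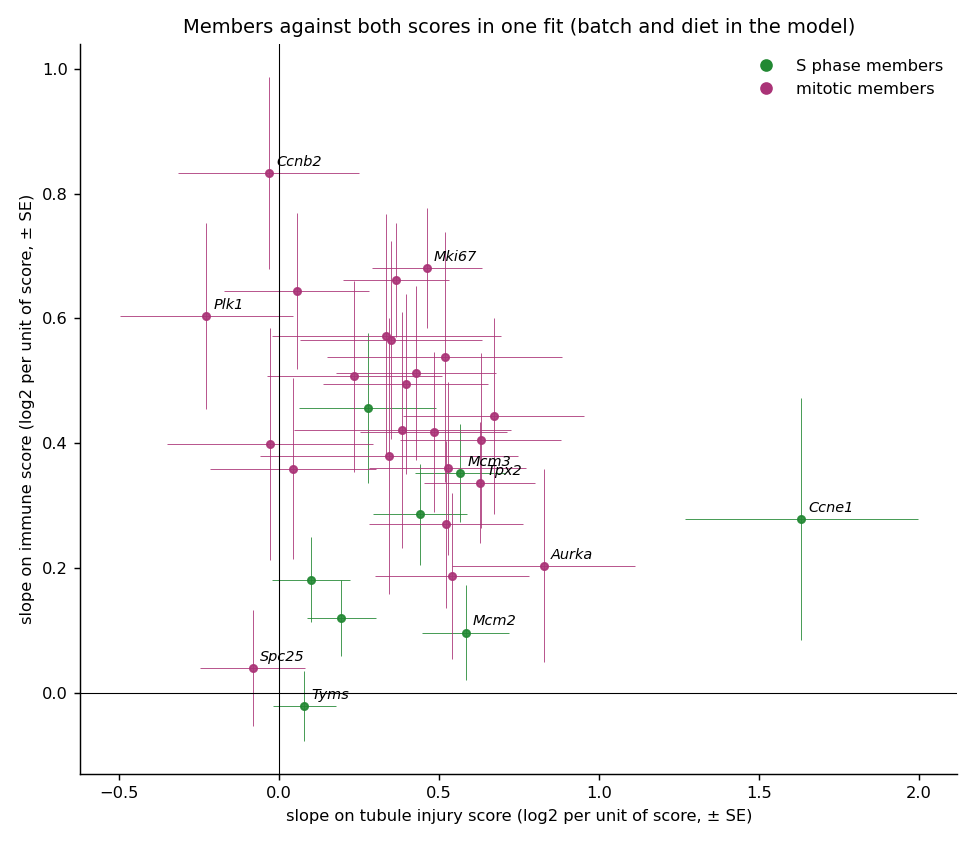
Slope of each gene on the tubule injury score (x axis) and on the immune score (y axis) from 1 fit with both, in log2 per unit of score ± SE, S phase genes in green and mitotic genes in magenta. Ccne1 lies farthest to the right (1.63), Ccnb2 highest (0.83), and Spc25 and Tyms near 0 on both.

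Other genes of the same phases, from lists that do not include the 32, were likewise higher on average. Of 54 other mitotic genes 50 had a higher mean with fisetin (median log2 difference 0.245), and of 32 other S phase genes 26 did (median 0.099), with 0 past the threshold in either. With the immune score as a further term these were 22 of 54 (median -0.037) and 9 of 32 (median -0.07), and without fisetin 5 the medians were 0.121 and 0.03. The smallest p-values among them were those of Mad2l1 (checkpoint; 0.33 ± 0.12, adjusted p = 0.297), Kif18a (kinesin; 0.39 ± 0.14, adjusted p = 0.302) and Smc4 (condensin; 0.31 ± 0.12, adjusted p = 0.303). For S phase they were Ccne2 (cyclin E2; 0.51 ± 0.15, adjusted p = 0.276), Pole (polymerase epsilon; 0.35 ± 0.13, adjusted p = 0.303) and Fen1 (flap endonuclease; 0.28 ± 0.14, adjusted p = 0.357).

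With the immune score, 23 of the 54 other mitotic genes rose, and of the 32 other S phase genes 9 rose, where 9.21% of all genes did. Without fisetin 5 there were 2 and 0 (3.38% of all genes), and without fisetin 6 there was 1 in each list (3.95% of all genes). In batch 1 alone there were 0 in each (2.11% of all genes, and 16 and 6 unadjusted). With the injury score 18 of 54 rose, and of 32 other S phase genes 14 rose, where 8.14% of all genes did. Without fisetin 6 both counts were 0 (11 and 11 unadjusted), as for all genes.

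Upstream of S phase, 6 of 8 G1 cyclins, their kinases and activators had a higher mean with fisetin (median 0.129), led by Ccnd2 (cyclin D2; 0.41 ± 0.16, adjusted p = 0.311), E2f3 (0.15 ± 0.06, adjusted p = 0.313) and Myc (0.18 ± 0.10, adjusted p = 0.391). Of these, Ccnd2 rose with the immune score (0.54, adjusted p = 0.000157) and Cdk6 and Myc with the injury score (0.57, adjusted p = 0.00681, and 0.52, adjusted p = 0.0136). That was 1 of 8 for the immune score, where 9.21% of all genes rose, and 2 of 8 for the injury score, where 8.14% rose. Of 14 genes that hold the cycle back, 13 were tested and 12 had a higher mean with fisetin (median 0.118), with 0 past the threshold. They were led by Rb1, the retinoblastoma protein (0.20 ± 0.05, adjusted p = 0.257), Cdkn1a, the p21 inhibitor (0.42 ± 0.17, adjusted p = 0.310), and Rbl1 (0.20 ± 0.09, adjusted p = 0.341). Of the 13 tested, 4 rose with the immune score (9.21% of all genes) and 5 with the injury score (8.14%). Cdkn1a rose with both scores (0.47, adjusted p = 0.0162, and 0.97, adjusted p = 0.00293), beside Rbl1, Btg1 and Btg2. Cdkn2b rose with the injury score (0.89, adjusted p = 0.0248) and did not pass for the immune score. Cdkn1c (-0.94, adjusted p = 0.0033) and Rbl2 (-0.24, adjusted p = 0.0456) fell with the injury score, where 1829 of all 17890 genes fell. Neither passed for the immune score (adjusted p = 0.0699 and 0.256). Without fisetin 6 the injury score called 0 of all genes. The immune score called 3.38% of all genes as rising without fisetin 5 and 3.95% without fisetin 6. Cdk6, Cdkn1c, Cdkn2b, Rbl2, Btg1 and Btg2 were picked out after their values were seen.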

How the data were processed

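RNA of integrity above a set limit was made into KAPA mRNA HyperPrep libraries, per the labels' protocols. Trimming, alignment and counting tools (fastp, STAR, featureCounts) and DESeq2 are listed with build GRCm38 (mm10), per the submitters' processing notes, with no versions. The deposited table holds estimated counts, unscaled, per the file headers, and 13.91% of those above 0 were not whole, so they were rounded before testing. The deposited TPM values were scaled by the authors to a fixed total of transcripts. The deposited FPKM values, scaled by the authors for length and depth, were not used in a result.

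In R 4.3.3, genes passing filterByExpr (minimum count 10) were scaled with TMM and tested with edgeR 4.0.16 (glmQLFit, robust, and glmQLFTest, two-sided) with terms for batch and diet, then with a centred immune or injury score added. P-values were adjusted by Benjamini-Hochberg over all 17890 genes, with a threshold of 0.05. Scores were mean log2 CPM of listed genes past the filter (prior count 2). Standard errors came from the fold change and F. Alternatives used DESeq2 1.42.0, limma 3.58.1, sva 3.50.0 (2 surrogate variables), RLE or total count scaling, log2(TPM + 1), no filter, other covariates, single batches and each library left out. The steps were tested on simulated counts. Gene loci are GENCODE M21 (55141 of 55487 identifiers matched).

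The 32 genes and all lists were chosen with earlier results of these data known. Full values are given for the genes with the 5 smallest p for diet and for the immune score and for Mki67, Top2a, Pcna, Mcm2, Ccnb1 and Cdk1, and of each other cell cycle list the 3 with the smallest p for diet are named. Library numbers follow accession order and pair nothing. The values of 1 gene of the other lists are not reported here.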

Additional observations from a re-analysis of the deposited data

Results flagged for a closer look

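In 5 of 70 groups of 6 libraries (each gene or score within a diet), 1 library lay far from the other 5 by Dixon's test, where chance gives about 1 in 20 groups. Mcm2 in fisetin 6 was at 4.23 log2 CPM, with the other fisetin libraries at 4.79 to 4.99. Spc24 in fisetin 6 was at 1.5, with the others at 2.25 to 2.51. Pcna in control 4 was at 5.31, with the other control libraries at 5.46 to 5.54. Ccna2 in control 4 was at 2.68, with the others at 3.28 to 3.40. Birc5 in control 2 was at 0.91, with the others at 1.71 to 2.19. All 5 lay below their group. Fisetin 6 and control 4 were also the libraries with the lowest S phase scores of the 12 (3.728 and 3.766) and the highest proximal tubule scores (10.044 and 10.098).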

How the results depend on the processing

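No paired analysis was possible because the labels give no replicate numbers. The added fits (without control 1 and fisetin 6, single batches for the score terms, single marker lists) were chosen after seeing the data.

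The count of genes called for diet was 0, and 1 by DESeq2, 5 by limma-voom with quality weights, 0 to 1 leaving out 1 library and 12 without control 1 and fisetin 6. For the immune score it was 23, and 5 to 28 leaving out 1 library, 2 without control 1 and fisetin 6, 4 and 2 in batch 1 and batch 2 alone, 8 with both scores, and 6 with T and NK cell and 11 with B cell markers alone. For the injury score it was 12, and 0 to 16 leaving out 1 library, 0 without control 1 and fisetin 6 (4 unadjusted), 0 in batch 1 alone, 3 with both scores and 24 with total count scaling. In the other fits run these counts were within 1.5 times. The calls over all genes moved too. Leaving out 1 library, 0 to 44 genes of the whole table were called higher for diet. Those called as rising were 608 to 2420 for the immune score and 0 to 1857 for the injury score. For batch and for the interaction the count was 0 with RLE scaling, DESeq2, no filter and each library left out.

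The median log2 difference was 0.33 over the 32 genes and 0.375 over the mitotic genes, and -0.032 and -0.02 with the immune score, -0.046 and -0.034 with 2 surrogate variables. Leaving out 1 library gave 0.202 to 0.424 and 0.23 to 0.468. Correlations leaving out 1 library were 0.76 to 0.924 (S phase with immune), 0.804 to 0.882 (S phase with injury), 0.88 to 0.961 (mitotic with immune) and 0.608 to 0.772 (mitotic with injury), and on log2(TPM + 1) 0.918 for S phase and 0.761 for mitotic with injury. CHR cores were in 16 of 27 promoters when all 300 bases were read.

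Signs of log2 differences, none of them called, turned with the immune score as covariate, in Mcm2 -0.059, Mcm3 -0.102, Mcm5 -0.226, Mcm6 -0.056, Pcna -0.005, Rrm2 -0.052, Ccna2 -0.001, Ccnb2 -0.169, Cdk1 -0.061, Aurka -0.012, Aurkb -0.044, Bub1 -0.031, Bub1b -0.034, Cdc20 -0.118, Cenpa -0.027, Ndc80 -0.087, Spc24 -0.114, Mki67 -0.085, Top2a -0.109 and Kif20a -0.046, and with 2 surrogate variables, in Mcm2 -0.079, Mcm3 -0.103, Mcm5 -0.224, Mcm6 -0.058, Pcna -0.009, Rrm2 -0.057, Ccna2 -0.007, Ccnb2 -0.186, Cdk1 -0.067, Aurka -0.036, Aurkb -0.048, Bub1 -0.055, Bub1b -0.05, Cdc20 -0.132, Cenpa -0.032, Ndc80 -0.111, Spc24 -0.135, Mki67 -0.098, Top2a -0.115 and Kif20a -0.044. Mcm5 was -0.056 with the injury score and -0.026 to 0.122 leaving out 1 library (0.208 without control 1 and fisetin 6). Tyms was 0.0 on log2(TPM + 1). The slopes on the immune score near 0 also turned. That of Tyms was -0.0 with RLE scaling and with DESeq2, -0.001 with no filter, -0.056 with no diet term, -0.021 with both scores, -0.006 without control 1 and fisetin 6, -0.009 with T and NK cell markers and -0.007 to 0.017 leaving out 1 library. That of Spc25 was -0.018 by limma-voom with quality weights, -0.086 in batch 1, -0.055 with macrophage and -0.102 with dendritic markers, and -0.039 to 0.105 leaving out 1 library (0.208 without control 1 and fisetin 6). That of Mcm2 was -0.171 without control 1 and fisetin 6, and 0.081 to 0.32 leaving out 1 library. Ccnb2 had -0.032 on the injury score with both scores. The cause of these changes was not tested. Of 800 refits of single diet differences, 734 kept direction and side of the threshold, and 47 were reversed. None of these differences was called in the main fit and the refits share libraries, so the count says little about how firm they are. Genes with few counts, such as Ccne1 and Ttk, are limited by depth.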
